A study of Mus musculus with 6 samples.

Results

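Guanylate-binding proteins (GBPs) are large GTPases that interferons induce in macrophages and many other cells. They coat intracellular bacteria and the vacuoles of parasites, and they help to open these structures to cytosolic sensors such as caspase-11 and the inflammasomes. IFN-γ, which acts through GAS elements in DNA, is known as the strongest inducer of the family, whereas type I IFNs such as IFN-β act through a complex that holds STAT2 and IRF9 on ISRE elements. In EAE, a mouse model of multiple sclerosis, Th cells that enter the CNS make IFN-γ, and mice can also be given IFN-β, so monocytes there can meet both.

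The 10 genes described are *Gbp2*, *Gbp2b*, *Gbp3*, *Gbp4*, *Gbp5*, *Gbp6*, *Gbp7*, *Gbp8*, *Gbp9*, and *Gbp10*, found by their GENCODE M21 symbols among the 54232 genes of the deposited RNA-seq tables. They were measured in CNS monocytes sorted as GFP- CD45+ CD11b+ Ly6Chi Ly6G- from mixed BM chimera mice at the peak of EAE, in 3 WT and 3 *Ifnar1*-/- libraries. The recipients were irradiated GFP+ mice reconstituted with an equal mix of *Ifnar1*-/- BM, marked by CD45.2, and WT BM, marked by CD45.1, immunized 6 to 7 weeks later, and treated daily with 30000 IU of IFN-β. The comparison asked which transcripts differ between monocytes with and without IFNAR1, a chain of the type I IFN receptor, in the same treated mice. Every library came from treated mice, so an untreated level was not measured, and receptor genotype and donor CD45 allele cannot be told apart. The study's methods give 3 recipients and 3 libraries per genotype, so both genotypes came from the same mice, but neither they nor the labels say which libraries share a mouse. The tests below treat the libraries as independent, and p-values measure the spread between these libraries only.

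Libraries held from 4531782 to 7321380 expected counts, a count that RSEM estimates per gene and need not be whole. Levels are given as normalized CPM, counts scaled for library size and composition by TMM, and a gene was called when it differed by 1.5-fold or more and its adjusted p, by the quasi-likelihood method of edgeR, did not exceed 0.05. *Ifnar1* itself ranged from 111 to 153 normalized CPM in WT and from 101 to 110 in *Ifnar1*-/- libraries (log2 fold change 0.28, adjusted p = 0.360 from edgeR), so whole-gene counts do not check the genotype labels. The monocyte genes *Ly6c2*, *Ccr2*, *Itgam*, *Csf1r*, *Cd14*, *Lyz2*, and *Ptprc* summed to 8135 to 9808 normalized CPM in WT and 8677 to 9995 in *Ifnar1*-/- libraries, and *Ly6c2*, a gene of the Ly6C marker used for the sort, was called higher in WT (log2 fold change 1.40, adjusted p = 0.00957 from edgeR). *Ccr2* was lower in every WT library than in every *Ifnar1*-/- library without passing (log2 fold change -0.62, adjusted p = 0.143 from edgeR). Neutrophil markers (6 genes) summed to 213 to 1040 normalized CPM in WT and 566 to 1470 in *Ifnar1*-/- libraries, mostly from *S100a8*, *S100a9*, and *Mmp8*. *Ly6g*, the gene of the marker that the sort excluded, was at most 0.790 in any library, *Cxcr2* at most 12.0, and *Retnlg* at most 18.2. Microglia markers (5 genes) summed to 24.1 to 31.2 in WT and, without overlap, 33.1 to 35.6 in *Ifnar1*-/- libraries. T cell markers (7 genes) summed to 16.4 to 40.0 normalized CPM in WT and 6.61 to 16.3 in *Ifnar1*-/- libraries. These sums too did not overlap, though narrowly. All 6 tested T cell markers were higher in WT, by 0.94 (*Trbc2*) to 1.80 (*Cd4*) on the log2 scale, but none was called. Of other cell types, 4 NK cell markers summed to at most 3.95 and 3 B cell markers to at most 0.197. The part of any of these cell types in the results below was not tested.

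The genes lie in 2 clusters. *Gbp5*, *Gbp7*, *Gbp3*, *Gbp2b*, and *Gbp2* follow one another on the plus strand of chromosome 3, from 142493978 to 142638008 in GRCm38. *Gbp8*, *Gbp9*, *Gbp4*, *Gbp10*, and *Gbp6* lie on the minus strand of chromosome 5, from 105014150 to 105293698. In the annotation the chromosome 5 genes are entangled. *Gbp9* (105077630 to 105139539) and *Gbp4* (105115767 to 105139586) lie almost wholly inside the range of *Gbp8* on the same strand, and a protein-coding gene named *Gm43302* (105214907 to 105293695) spans both *Gbp10* and *Gbp6*.

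Promoter windows of RefSeq on GRCm38.p6, from 250 bases before to 50 bases after the start, were at hand for the 5 chromosome 3 genes. They were searched for the ISRE core, GAAA followed by 2 of any bases and GAAA, on both strands (on the other strand it starts and ends with TTTC), and for the GAS core, TTC followed by 3 of any bases and GAA, which has the same form on both strands. No ISRE and GAS match overlapped in these windows. All 5 genes held the ISRE letters in a window, which 3.43% of 32817 mouse windows did. The first ISRE match began 59 bases before the start in *Gbp2*, 45 in *Gbp3*, 53 in *Gbp7*, 165 in *Gbp5*, and 137 in *Gbp2b*. Windows of *Gbp5* and *Gbp7* held the GAS letters at 2 places each, which 8.29% of all windows held at least once. The whole window of *Gbp2*, the gene with the highest level, and the stretches of the others around their matches are shown so that the elements can be set beside the levels. The capitals mark ISRE and GAS matches. The plus strand is printed, on which every ISRE match reads in the TTTC form, so that its GAAA form lies on the minus strand.
Gbp2 (chr3:142620413-142620712): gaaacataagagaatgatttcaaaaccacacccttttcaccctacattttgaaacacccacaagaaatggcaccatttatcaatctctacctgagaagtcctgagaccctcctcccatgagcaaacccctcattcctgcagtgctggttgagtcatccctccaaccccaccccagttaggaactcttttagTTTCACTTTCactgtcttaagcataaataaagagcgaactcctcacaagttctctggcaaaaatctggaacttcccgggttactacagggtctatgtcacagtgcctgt
Gbp3 (chr3:142559979-142560034): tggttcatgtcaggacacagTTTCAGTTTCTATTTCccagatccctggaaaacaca
Gbp7 (chr3:142530210-142530312): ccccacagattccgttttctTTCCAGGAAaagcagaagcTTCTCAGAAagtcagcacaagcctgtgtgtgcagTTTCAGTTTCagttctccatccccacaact
Gbp5 (chr3:142496684-142496910): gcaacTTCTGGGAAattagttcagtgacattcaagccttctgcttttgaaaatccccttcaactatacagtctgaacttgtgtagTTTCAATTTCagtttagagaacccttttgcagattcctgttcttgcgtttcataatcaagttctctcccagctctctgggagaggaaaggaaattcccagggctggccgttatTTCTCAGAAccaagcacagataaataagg
Gbp2b (chr3:142594690-142594739): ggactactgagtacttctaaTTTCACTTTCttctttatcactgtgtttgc
The same 10 ISRE letters, TTTCACTTTC, stood in the windows of *Gbp2*, the member with the highest level, and of *Gbp2b*, one of the 2 lowest. In *Gbp3* the capitals are 2 overlapping ISRE matches. A match is a string of letters and was not shown here to bind a factor.

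GBP transcripts were abundant in both genotypes. The 10 genes together took from 2020 to 2391 normalized CPM in WT and from 1852 to 2950 in *Ifnar1*-/- libraries, and the lowest and the highest value both came from *Ifnar1*-/- libraries. The ratio of the group means was 0.968. None of the 8 genes that passed the filter on low counts was called by edgeR in either direction, where 2.13% of all 11254 tested genes were called, 1.67% higher in WT and 0.462% lower. In bulk RNA, fewer cells of a type and less RNA per cell cannot be told apart. The log2 fold changes, WT over *Ifnar1*-/-, ran from -0.36 to 0.70, 4 above and 4 below zero, with adjusted p from 0.198 to 0.950 from edgeR. Their median was 0.03 against -0.01 for all tested genes. At an unadjusted edgeR p of at most 0.05, 2 of the 8 passed, *Gbp6* and *Gbp9*, where 17.8% of all tested genes did. DESeq2 and limma-voom on the same counts called none of them. A p that misses the threshold does not show equal levels, and the 95% intervals give the sizes that the data allow. For 7 of the 8 genes the whole interval lay within 2-fold in both directions, and across all 8 the bounds ran from 0.554-fold to 2.43-fold.

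**Figure D1:**
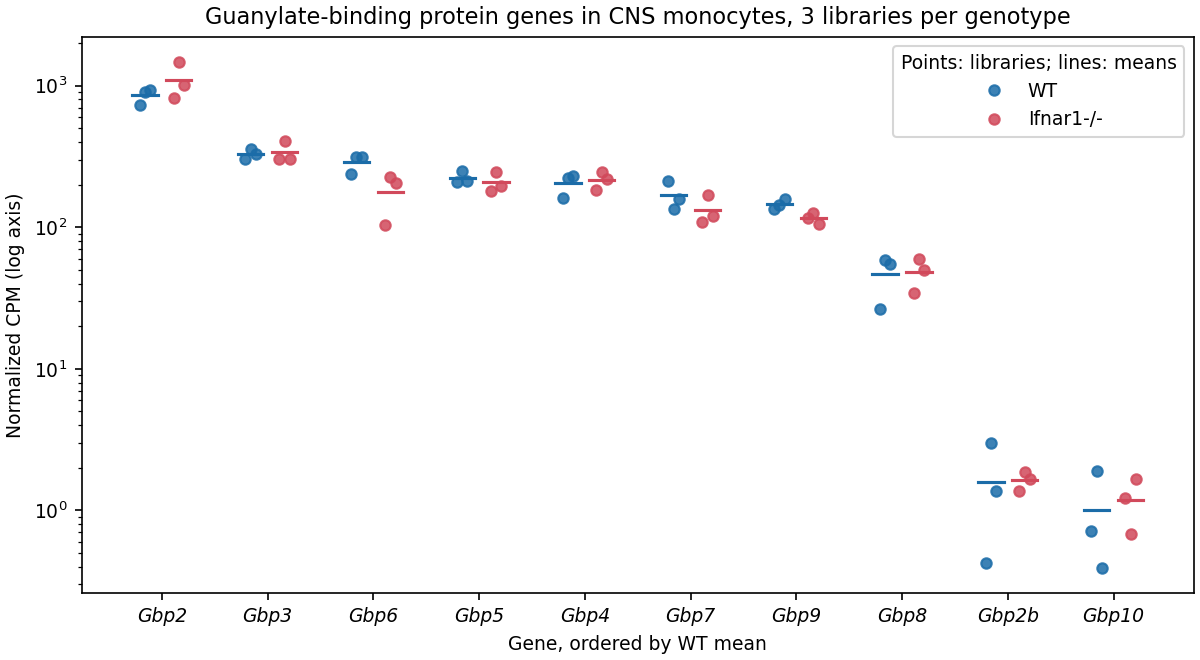
Normalized CPM of each GBP gene on a log axis, with 1 point per library and a line at the mean of the 3 WT (blue) or 3 *Ifnar1*-/- (red) libraries. The libraries of the genotypes overlap for every gene but *Gbp6* and *Gbp9*, and *Gbp2b* and *Gbp10* lie far below the other 8 genes.

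*Gbp2*, whose protein carries a lipid anchor at its C-terminus and is among the best studied GBPs in defense against *Toxoplasma* and bacteria, was the most abundant. Normalized CPM of *Gbp2* were 735, 896, and 935 for WT libraries 1, 2, and 3, against 820, 1468, and 1006 for *Ifnar1*-/- libraries. The groups overlapped, and *Ifnar1*-/- library 2 stood above the rest. Its log2 fold change was -0.36 (SE 0.22, 95% interval -0.85 to 0.13, adjusted p = 0.430 from edgeR), and without *Ifnar1*-/- library 2 it was -0.08. *Gbp2b*, the mouse gene long called *Gbp1*, is the nearest neighbor of *Gbp2* but was almost silent. Its counts were 3, 14, and 7 in WT and 9, 11, and 9 in *Ifnar1*-/- libraries, so it did not pass the filter. The low level was shared by both genotypes, with a mean normalized CPM of 1.59 ± 1.29 for WT and 1.63 ± 0.246 for *Ifnar1*-/- monocytes (SD, n = 3 each).

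*Gbp3* and *Gbp5* overlapped between the genotypes. *Gbp5* encodes a protein linked to assembly of the NLRP3 inflammasome, and like GBP2 the protein is lipid-anchored. Normalized CPM of *Gbp5* were 210, 251, and 211 in WT and 180, 246, and 195 in *Ifnar1*-/- libraries. The log2 fold change of *Gbp5* was 0.11 (SE 0.16, 95% interval -0.25 to 0.47, adjusted p = 0.769 from edgeR), and it ran from 0.033 without *Ifnar1*-/- library 1 to 0.27 without *Ifnar1*-/- library 2. Normalized CPM of *Gbp3* were 301, 354, and 329 in WT and 303, 409, and 305 in *Ifnar1*-/- libraries. WT and *Ifnar1*-/- values were again intermixed, and the log2 fold change was -0.05 (SE 0.17, 95% interval -0.42 to 0.32, adjusted p = 0.917 from edgeR). *Gbp7*, whose protein is known to act with the phagocyte oxidase in macrophages, was at 212, 134, and 157 normalized CPM in WT and at 109, 168, and 120 in *Ifnar1*-/- libraries. WT library 1 was the highest, but *Ifnar1*-/- library 2 exceeded the other WT libraries. The log2 fold change of *Gbp7* was 0.34 (SE 0.21, 95% interval -0.13 to 0.81, adjusted p = 0.436 from edgeR), and it was 0.14 without WT library 1 and 0.57 without *Ifnar1*-/- library 2. A processed pseudogene, *Gm43802*, lies within *Gbp7* on the same strand.

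On chromosome 5, *Gbp6* had the largest difference of the family. Its normalized CPM were 239, 312, and 315 for WT against 103, 226, and 204 for *Ifnar1*-/- libraries. Every WT library was above every *Ifnar1*-/- library, though WT library 1 exceeded *Ifnar1*-/- library 2 by little, and *Ifnar1*-/- library 1 was far below the others. The log2 fold change was 0.70 (SE 0.26, 95% interval 0.12 to 1.28), a 1.62-fold higher level in WT that did not pass correction (unadjusted p = 0.0225, adjusted p = 0.198 from edgeR). A two-sided exact permutation test gave p = 0.1, the smallest that 3 libraries against 3 allow. The call depended on the processing. *Gbp6* was called without a filter on low counts (log2 fold change 0.69, adjusted p = 0.00464 from edgeR) and by DESeq2 with the replicate number as a block (0.78, adjusted p = 0.0110), but in none of the other 14 alternatives, among which adjusted p reached 0.424. That value came without *Ifnar1*-/- library 1, where the log2 fold change fell to 0.44.

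*Gbp9* was the other member with separate groups, at 134, 142, and 158 normalized CPM in WT and 116, 125, and 105 in *Ifnar1*-/- libraries. The separation was narrow but the spread within each genotype was small, at 145 ± 11.9 (SD, n = 3) against 115 ± 10.1 (SD, n = 3). The log2 fold change was 0.33 (SE 0.14, 95% interval 0.01 to 0.64, unadjusted p = 0.0417, adjusted p = 0.259 from edgeR; two-sided exact permutation test, p = 0.1). Of all tested genes, 11.1% had every WT library above every *Ifnar1*-/- library and 12.2% the reverse, against 2 and 0 of the 8 GBP genes.

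*Gbp4* and *Gbp8* showed no such separation. *Gbp4* had 161, 223, and 229 normalized CPM in WT and 184, 244, and 220 in *Ifnar1*-/- libraries, and its log2 fold change was -0.08 (SE 0.18, 95% interval -0.48 to 0.32, adjusted p = 0.859 from edgeR). *Gbp8* was lower and more variable, at 26.6, 58.2, and 54.7 in WT and 34.2, 60.0, and 49.8 in *Ifnar1*-/- libraries. WT library 1 was the lowest library for both genes. The log2 fold change of *Gbp8* was -0.05 (SE 0.29, 95% interval -0.69 to 0.58, adjusted p = 0.950 from edgeR), and without WT library 1 it was 0.24. *Gbp10* was near the detection floor, taken as 3 counts, with 5, 9, and 2 counts in WT and 8, 4, and 9 in *Ifnar1*-/- libraries, and did not pass the filter.

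How far these values can be ascribed to single genes varied, since RSEM divides reads that fit several genes. Transcripts of each gene were cut into stretches of 75 bases, the read length, and compared with all other mouse transcripts of GENCODE M21. Reads were sequenced in pairs, and single stretches do not use the other end, so these shares do not count ambiguous read pairs. In *Gbp6*, 67.3% of stretches also occurred in another gene, mostly in *Gm43302* (61.7%) and *Gbp10* (40.4%). In *Gbp10* the share was 77.8%, so the values of both genes are uncertain. Reads were nonetheless assigned very unevenly, with at least 676 counts for *Gbp6* and at most 9 for *Gbp10* in any library. When counts of *Gbp6*, *Gbp10*, and *Gm43302* were merged, the log2 fold change of the merged gene was 0.69 (adjusted p = 0.201 from edgeR), close to that of *Gbp6* alone. The other 8 genes shared between 0.578% (*Gbp5*) and 11.3% (*Gbp7*) of their stretches, and for *Gbp4*, *Gbp8*, and *Gbp9*, whose ranges overlap, the shares were 3.08%, 8.04%, and 3.61%. Effective length is RSEM's average length of a gene's isoforms, weighted by their abundance and corrected for fragment length. It moved between 508 and 3323 bases for *Gbp10* across libraries and between 1764 and 2447 bases for *Gbp4*. The levels of both genes per length thus also depend on how reads were divided among isoforms.

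**Figure D2:**
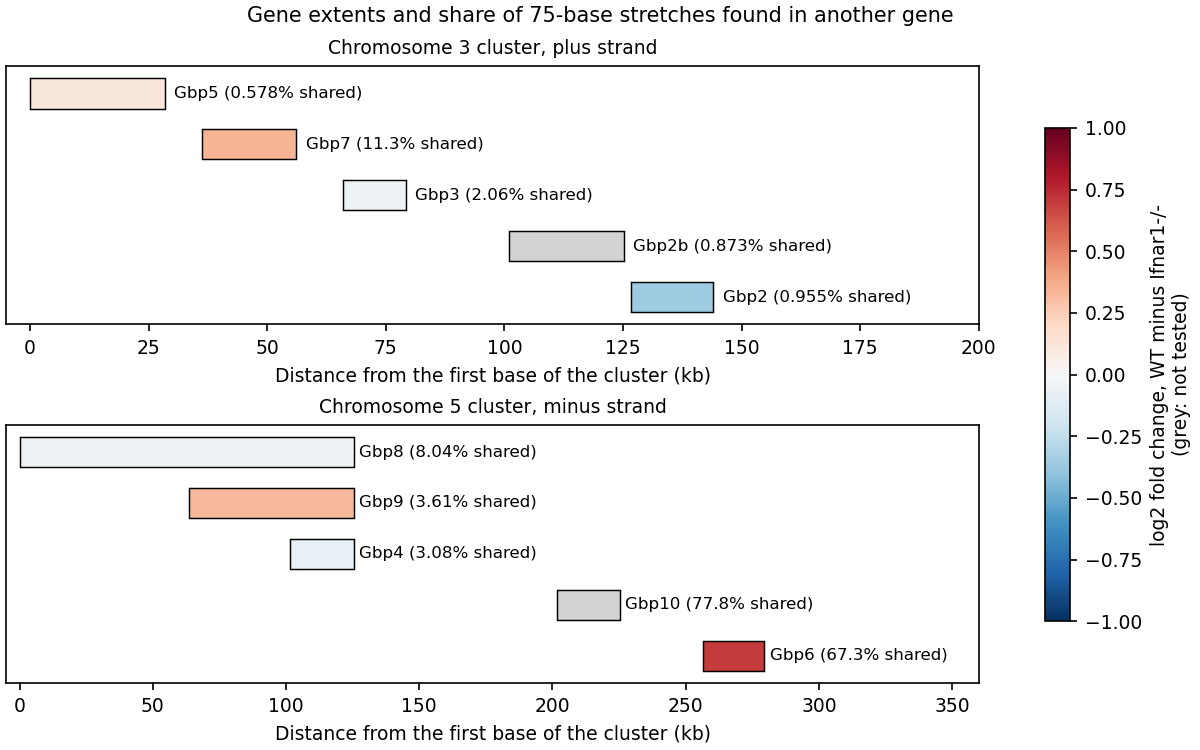
Extent of each GBP gene in kb from the first base of its cluster, colored by log2 fold change (WT minus *Ifnar1*-/-, grey where not tested), with the share of its 75-base transcript stretches that also occur in another gene. *Gbp6* has the largest difference and shares 67.3% of its stretches, whereas *Gbp2* and *Gbp5* share under 1%.

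Levels of different genes were compared per length with TPM. In WT library 1 the 7SL RNA gene *Rn7s2* alone took 278100 TPM, which leaves less of the fixed total to all other genes, so TPM were rescaled to the same total over protein-coding genes in each library. On this scale *Gbp2* was first, at 750 ± 96.6 TPM for WT and 933 ± 268 for *Ifnar1*-/- monocytes (SD, n = 3 each), and it ranked 189 among 14638 detected protein-coding genes by its mean over the 6 libraries. *Gbp3* followed with 273 ± 17.8 in WT and 273 ± 43.3 in *Ifnar1*-/- monocytes (SD, n = 3). *Gbp4*, *Gbp5*, and *Gbp6* had means over the 6 libraries of 209, 185, and 170 TPM. Their ranges over the 6 libraries overlapped with those of their neighbors in this order, *Gbp3* above and *Gbp7* below included. Within every library, though, *Gbp3* was above *Gbp4* and *Gbp6* above *Gbp7*. By group means, *Gbp6* had 213 TPM against 194 for *Gbp5* in WT, and 127 against 177 in *Ifnar1*-/- monocytes. In WT library 1, however, *Gbp6* (180) was below *Gbp5* (183), as in every *Ifnar1*-/- library. The switch in order thus rested on WT libraries 2 and 3. *Gbp7* and *Gbp9* had means of 89.2 and 84.5 TPM and overlapped, and *Gbp8*, with 54.5, lay below *Gbp9* in every library. *Gbp10* and *Gbp2b* came last, with 2.81 and 1.23 TPM, and overlapped. *Gbp2* was above *Gbp3* in every library.

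The make-up of the family was compared as well. As a share of the summed TPM of the 10 genes, which does not depend on *Rn7s2*, *Gbp2* took 38.9%, 38.4%, and 40.7% in WT and 46.5%, 51.2%, and 47.1% in *Ifnar1*-/- libraries. *Gbp6* took 10.8%, 11.5%, and 11.3% in WT and 4.94%, 6.63%, and 7.94% in *Ifnar1*-/- libraries. The groups did not overlap in either share, and shares of a whole are bound to move against each other. All 8 other shares overlapped between the genotypes. In normalized CPM, 11.1% of all tested genes had every WT library above and 12.2% every WT library below the *Ifnar1*-/- libraries. That background is of another measure and of tested genes only, so it is a rough guide. By it, 2 of 10 shares, which are bound to each other, was not an excess. Within each library, the ratio of *Gbp6* to *Gbp2* in normalized CPM was 0.325, 0.349, and 0.337 in WT and 0.126, 0.154, and 0.203 in *Ifnar1*-/- libraries, a mean 2.09-fold higher in WT. Against the 7 other tested members, the ratio of *Gbp6* was higher in every WT library than in every *Ifnar1*-/- library for *Gbp2*, *Gbp3*, *Gbp4*, *Gbp5*, and *Gbp8*, and overlapped for *Gbp7* and *Gbp9*. These ratios were chosen after the values of *Gbp6* were seen and all share them, so they describe the same difference again and were not tested. Summed by cluster, the chromosome 3 genes had 1577 ± 102 normalized CPM for WT and 1779 ± 459 for *Ifnar1*-/- monocytes, and the chromosome 5 genes 686 ± 108 and 558 ± 111 (SD, n = 3 each). Both sums overlapped between the genotypes. As a share of the summed TPM, the chromosome 3 genes took 72.5%, 67.9%, and 68.0% in WT and 77.2%, 77.3%, and 73.6% in *Ifnar1*-/- libraries, which did not overlap. This share includes that of *Gbp2* and leaves out that of *Gbp6*, the 2 member shares that did not overlap. It is therefore not a separate result, and a shift of either cluster as a whole was not tested.

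**Figure D3:**
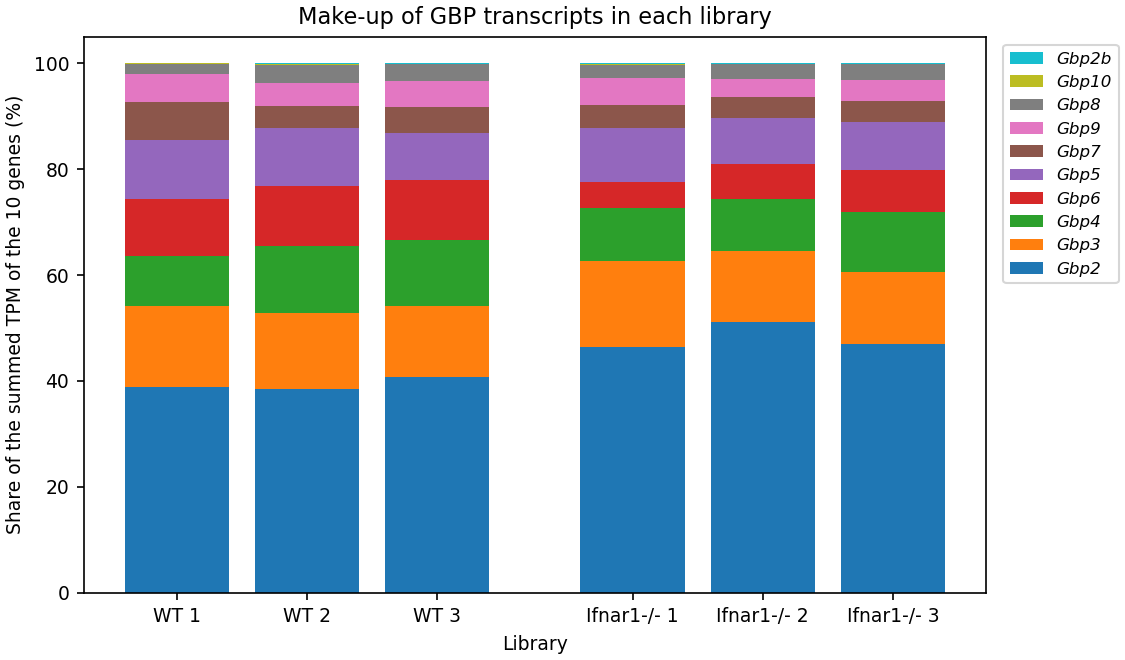
Share of each GBP gene, in percent, in the summed TPM of the 10 genes for each of the 6 libraries. *Gbp2* makes up 38.4% to 40.7% in WT and 46.5% to 51.2% in *Ifnar1*-/- libraries, and *Gbp6* 10.8% to 11.5% and 4.94% to 7.94%.

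Across the 6 libraries, the mean level of the tested members did not separate the genotypes. The mean of their centered log2 levels was highest in *Ifnar1*-/- library 2 (0.25) and lowest in *Ifnar1*-/- library 1 (-0.35), and the WT libraries were at -0.12, 0.15, and 0.16. The most alike pair was *Gbp3* and *Gbp5*, with a root-mean-square distance between their centered log2 profiles of 0.0959, and the least alike was *Gbp7* and *Gbp8* with 0.598. *Gbp6* was at least 0.428 from every other member. The non-member protein-coding genes nearest to the mean profile of the family over the 6 libraries were *Pmf1* (0.0326), *Usp40* (0.0446), *Lias* (0.0566), *Trappc9* (0.0646), and *Zfp787* (0.0649).

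Genes that carry interferon signals were compared next. Of 15 genes of receptors, kinases, factors, and feedback inhibitors, 2 were called higher in WT and none lower, with a median log2 fold change of 0.25. *Stat2*, a factor of the type I and type III IFN response, was at 189, 123, and 139 normalized CPM in WT and 30.8, 44.1, and 35.3 in *Ifnar1*-/- libraries (2.04 on the log2 scale, SE 0.20, adjusted p = 0.000347 from edgeR). *Usp18*, a feedback inhibitor of type I IFN signaling, was at 83.2 ± 22.7 and 4.93 ± 1.13 normalized CPM (SD, n = 3), and differed by 4.09 on the log2 scale (SE 0.25, adjusted p = 1.3e-05 from edgeR). *Irf1* and the IFN-γ receptor genes *Ifngr1* and *Ifngr2* did not pass, though *Ifngr2* was higher in every WT library than in every *Ifnar1*-/- library. The log2 fold change was 0.01 for *Irf1* (95% interval -0.45 to 0.46), -0.01 for *Ifngr1* (-0.35 to 0.32), and 0.32 for *Ifngr2* (0.00 to 0.64), with adjusted p from 0.280 to 0.988 from edgeR. *Irf9*, the DNA-binding partner of STAT2, differed by 0.50 on the log2 scale (SE 0.13, adjusted p = 0.0842 from edgeR), with every WT library above every *Ifnar1*-/- library. None of 8 tested genes linked mainly to IFN-γ in myeloid cells was called. Their log2 fold changes ran from -0.21 for *Cxcl9* (95% interval -0.65 to 0.22) to 0.71 for *Fcgr1* (0.31 to 1.11, adjusted p = 0.0839 from edgeR), with a median of 0.06. *Fcgr1*, the gene of a high-affinity Fc receptor, was higher in every WT library than in every *Ifnar1*-/- library.

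**Figure D4:**
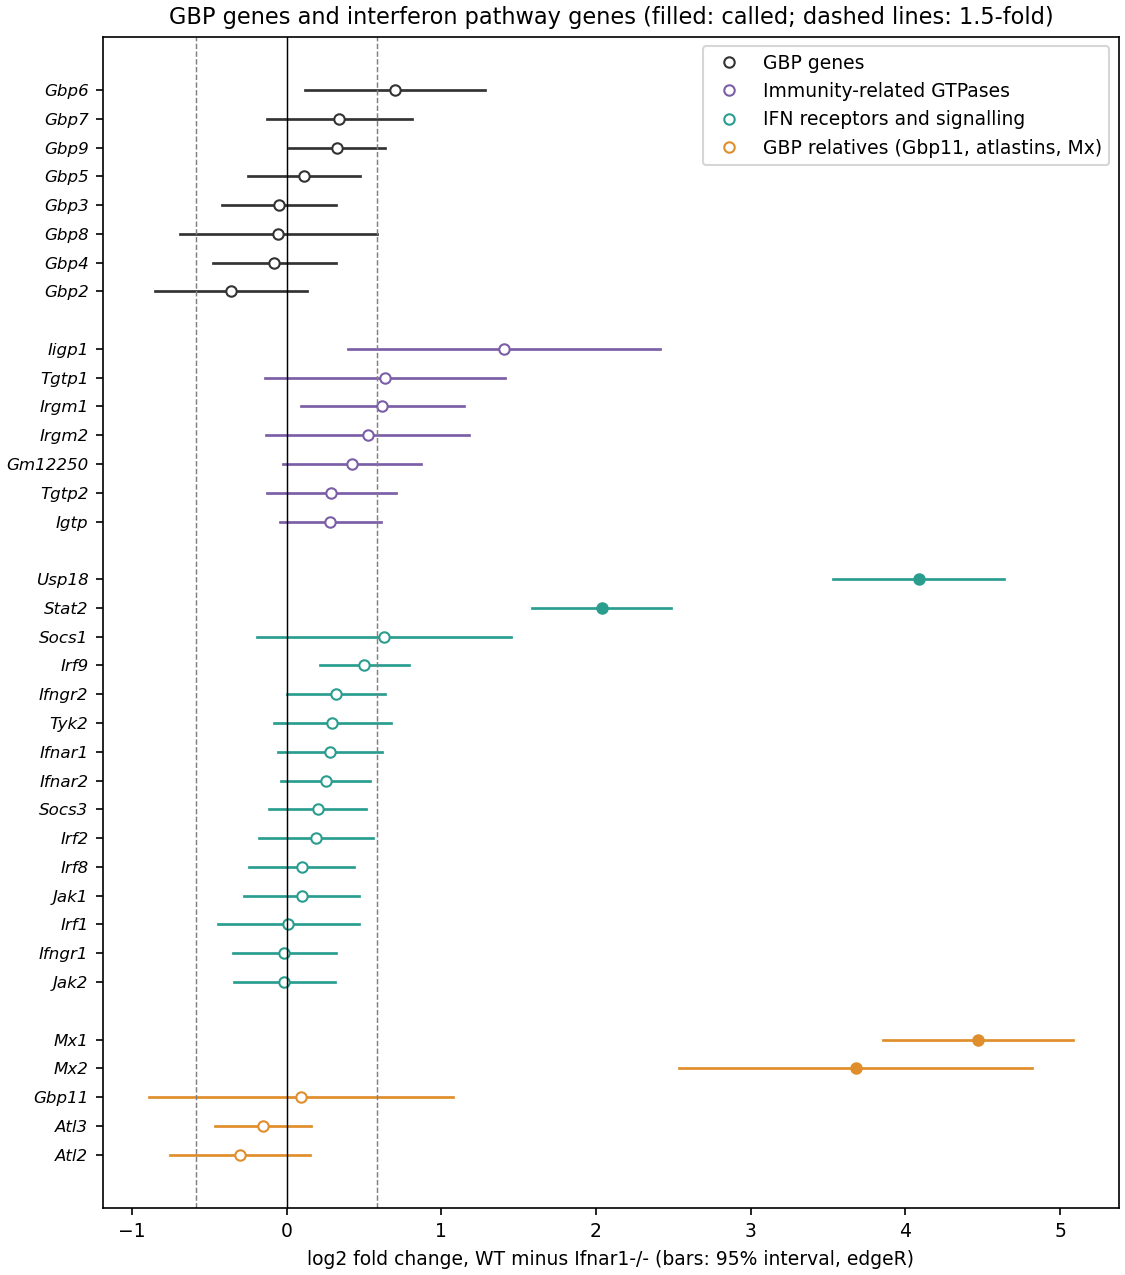
Log2 fold change (WT minus *Ifnar1*-/-) with its 95% interval derived from the edgeR test for the tested GBP genes and for immunity-related GTPases, interferon signaling genes, and GBP relatives. Filled points are called, dashed lines mark 1.5-fold, and the GBP intervals, up to 1.28 on the log2 scale, end below those of *Stat2*, *Usp18*, *Mx1*, and *Mx2*.

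Other GTPases were set beside the family. The Mx proteins are dynamin-like GTPases that block viruses and respond to type I IFNs. *Mx1* was at 106 ± 34.8 normalized CPM for WT and 4.78 ± 1.13 for *Ifnar1*-/- monocytes (SD, n = 3 each), and differed by 4.47 on the log2 scale (95% interval 3.85 to 5.08, adjusted p = 1.3e-05 from edgeR), and that of *Mx2* was 3.68 (adjusted p = 0.00359). The lowest bound of these intervals, 2.54, was above the highest bound of any GBP gene, 1.28. Atlastins, GTPases of the endoplasmic reticulum with a GTP-binding domain like that of GBPs, did not pass, with log2 fold changes of -0.30 for *Atl2* and -0.15 for *Atl3*. *Gbp11*, annotated as a polymorphic pseudogene beside *Gbp6*, was at 0.09 (95% interval -0.89 to 1.08). Immunity-related GTPases, which load onto parasite vacuoles together with GBPs, all had log2 fold changes above zero, but none of the 7 was called. Their median was 0.52, with 0.62 for *Irgm1* (adjusted p = 0.210 from edgeR) and 1.40 for *Iigp1* (SE 0.46, adjusted p = 0.151 from edgeR).

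Inflammasome genes act downstream of GBPs. Of 8 inflammasome genes, only *Il18*, a cytokine that caspase-1 matures, was called (7.81 ± 1.64 and 2.81 ± 0.741 normalized CPM, SD, n = 3; log2 fold change 1.45, adjusted p = 0.0401 from edgeR). *Casp4*, the gene of caspase-11, had a log2 fold change of 0.27 (95% interval -0.08 to 0.63), *Nlrp3* 0.05 (-0.40 to 0.50), *Aim2* -0.06 (-0.45 to 0.32), and *Gsdmd*, the pore-forming target of these caspases, 0.10 (-0.19 to 0.40). The lowest values were those of *Il1b* at -0.38 (-0.93 to 0.17), *Casp1* at -0.31 (-0.69 to 0.07), and *Pycard* at -0.15 (-0.50 to 0.21). None of 6 genes of the enzymes that add and trim prenyl anchors, which *Gbp2* and *Gbp5* proteins need, was called, with a median log2 fold change of -0.09.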

How the data were processed

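Total RNA of sorted CNS monocytes was sequenced in 6 libraries. The submitters' processing notes name STAR 2.6.0c, RSEM 1.2.31, and GRCm38, and the labels and the methods name different library kits. The authors deposited RSEM expected counts per gene, which are not normalized, and TPM, which the authors scaled to the same total in every library. Effective length is RSEM's. GENCODE M21 gave symbols for 54165 of 54232 identifiers.

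Expected counts were rounded and compared with edgeR 4.0.16 in R 4.3.3 (TMM, filterByExpr with a minimum count of 10, quasi-likelihood test, Benjamini-Hochberg adjustment over 11254 genes). A count of 3, the floor, equals 0.410 to 0.662 CPM and covers counting error only. Exact permutation tests used log2 of normalized CPM plus 0.5, and for the ratios of *Gbp6* to other members log2 of the ratio. Alternatives were DESeq2 1.42.0, limma-voom (limma 3.58.1), RLE scaling, other filters, removal of mitochondrial and ribosomal RNA genes, a replicate block, and leaving out each library. Merging of overlapping genes, GC and length offsets, and rescaled TPM were added after seeing the data. The tests were also tested on simulated data.

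The members and gene lists were chosen with earlier results of these data known. All 10 members were named. Of the other lists, the called genes, receptors, and main factors were named, and further examples and the monocyte markers were chosen after their values were seen. The 5 tested non-member protein-coding genes nearest to the mean member profile (root-mean-square distance of log2 levels centered on the gene mean) were named too. Promoter windows are from RefSeq on GRCm38.p6, and those of the chromosome 5 genes were not analysed here. A gene of the interferon signaling list is not reported here and was left out of that list.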

Additional observations from a re-analysis of the deposited data

How the results depend on the processing

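The number of GBP genes called higher in WT was 0, and it was also 0 in every alternative but 2, without a filter on low counts and by DESeq2 with the replicate block, where it was 1, *Gbp6*. With the block alone in edgeR it was 0, and *Gbp6* had an adjusted p of 0.0783 from edgeR. Same-numbered libraries correlated by 0.0872, 0.0265, and 0.289 in their deviations from the group means, and 0.289 was the highest of any pair. WT libraries 2 and 3 correlated best with the same-numbered *Ifnar1*-/- library, and WT library 1 with *Ifnar1*-/- library 2 (0.101). With 3 libraries per genotype, these values cannot decide whether same-numbered libraries share a mouse. The numbers were not taken as pairs in the main tests. Over all genes, 240 were called, 419 by DESeq2, 872 without the filter, 220 with the replicate block, and between 119 and 245 when 1 library was left out. The count fell by more than 1.5 times without WT library 3 (148), *Ifnar1*-/- library 1 (119), or *Ifnar1*-/- library 3 (120). The log2 fold changes of 5 GBP genes kept their sign in all 16 alternatives. Those of *Gbp3* (-0.11 to 0.12), *Gbp4* (-0.17 to 0.076), and *Gbp8* (-0.24 to 0.24) changed sign when 1 library was left out. The reversals were at 0.02, 0.076, and 0.24 without WT library 1 and at 0.12, 0.03, and 0.15 without *Ifnar1*-/- library 2. With GC and length offsets, *Gbp3* was at 0.042 and *Gbp8* at 0.031, where the cause was not tested. Leaving out 1 library moved *Gbp6* between 0.44 and 0.93 and *Gbp2* between -0.52 and -0.08. The summed levels of either cluster moved by less than the spread of the libraries on both TPM scales. Of the 8 tested genes, the 95% interval of 7 lay within 2-fold, and that of *Gbp6* reached beyond it.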
